A study of Mus musculus with 9 samples.

Results

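SR splicing factors are RNA-binding proteins with a domain rich in arginine and serine. They bind exons in pre-mRNA and help the U1 and U2 particles find the neighbouring splice sites, a role set by phosphorylation of that domain by the SRPK and CLK kinases. Many SR genes also limit their own level: the protein promotes inclusion of a poison exon in its own transcript, which is then removed by nonsense-mediated decay. An array probe set adds up productive and unproductive transcripts as far as its probes reach both.

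The family was read in FACS-sorted microglia, the macrophages that reside in brain tissue, on 9 arrays, 3 for each of 3 groups of female C57Bl/6 mice at 24 to 28 weeks of age. FAD DKO mice carried the familial Alzheimer's disease transgenes, floxed Hdac1 and Hdac2 alleles and Cx3cr1CreERT2, a tamoxifen-dependent Cre at the fractalkine receptor gene that deletes the 2 histone deacetylase genes in microglia and in other cells that express Cx3cr1. FAD mice carried the same transgenes and floxed alleles without Cre, and wild type mice are labelled without either. Each animal, wild type included, had received 8 mg tamoxifen at 6 weeks of age.

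The family was listed as 10 genes: the classical SR proteins Srsf1 to Srsf7, the atypical member Srsf10, and the SR-like transformers Tra2a and Tra2b. Each was looked for among probe sets with a single gene symbol, and where a gene had several, the brightest on average across all arrays was taken, so levels were chosen by their brightness and are given as a description. Of the 10 genes, 9 were found this way, out of 22180 genes with such a probe set, and Srsf7 was not analysed here. A further probe set that names Srsf10 together with Gpr141 was left out by the same rule. All 9 genes lay above the median of all probe sets (5.354 on the log2 scale), and the values below are log2 signals after RMA, so a difference of 1 is a doubling.

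The promoters of Srsf6, Tra2b and Srsf5 are shown because these are the genes whose FAD DKO arrays lay below all FAD and all wild type arrays. Each is the 250 bases before the annotated start, from RefSeq on GRCm38.p6, written 5′ to 3′ on the gene's strand. Capitals mark matches to the 10 motifs searched on both strands, which were the TATA box TATAAA, the CCAAT box, the GC box GGGCGG, the ETS motif CCGGAAG, the cAMP response element TGACGTCA, the AP-1 site TGANTCA, the E-box CACGTG, the palindrome of nuclear respiratory factor 1, the heat shock pair GAANNTTC and the hexamer GACGTC.
Srsf6, chr2:162931258-162931507, plus strand: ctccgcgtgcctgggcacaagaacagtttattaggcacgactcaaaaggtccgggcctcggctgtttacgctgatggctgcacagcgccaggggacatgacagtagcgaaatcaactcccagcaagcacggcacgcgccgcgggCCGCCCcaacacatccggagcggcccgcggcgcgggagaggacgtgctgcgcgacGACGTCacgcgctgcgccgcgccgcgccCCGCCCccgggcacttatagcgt
Tra2b, chr16:22266006-22266255, minus strand: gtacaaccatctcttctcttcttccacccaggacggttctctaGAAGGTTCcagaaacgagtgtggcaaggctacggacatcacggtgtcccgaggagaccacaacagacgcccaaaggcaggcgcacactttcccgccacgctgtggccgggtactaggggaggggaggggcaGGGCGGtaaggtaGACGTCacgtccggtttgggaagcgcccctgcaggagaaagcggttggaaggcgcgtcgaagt
Srsf5, chr12:80945249-80945498, plus strand: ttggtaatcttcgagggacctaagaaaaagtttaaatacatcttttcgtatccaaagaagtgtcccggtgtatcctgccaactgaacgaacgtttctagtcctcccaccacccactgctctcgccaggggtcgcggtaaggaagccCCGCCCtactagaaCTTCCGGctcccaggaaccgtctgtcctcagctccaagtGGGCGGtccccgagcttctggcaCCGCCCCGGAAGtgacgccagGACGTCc
The GC box GGGCGG occurred in all 3 windows and in those of 9 of the 10 genes, Srsf3 being without it, against 32.7% of 32851 such windows in the RefSeq table. The hexamer GACGTC, the core of the cAMP response element TGACGTCA and thus overlapping with it, was added to the search after the 3 windows had been read. It stood 51 bases before the start of Srsf6, 63 before that of Tra2b and 7 before that of Srsf5. Of all windows 3.77% hold it, but as it was added after these 3 windows were read, that share is no expectation for them. Tra2a was the other gene of the family with this hexamer, within the only full TGACGTCA of the family (1.55% of all windows), and its FAD DKO arrays were not lower. The ETS motif CCGGAAG was found in Srsf4, Srsf5 and Srsf7 (6.91% of all windows), and in Srsf5 its copy nearest the start shares a base with a GC box. The heat shock half-site pair GAANNTTC occurred in Tra2b alone (6.69% of all windows). The 12 windows of the 10 genes were CpG-rich, with an observed over expected CpG ratio from 0.832 to 1.20, against a median of 0.373 over all windows. Their GC content ran from 56.8% to 78%, against a median of 52.4% over all windows. The motif shares over all windows are not matched for this composition. These matches describe letters and say nothing of binding.

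Facts of the arrays bear on each value. Array medians ran from 5.346 to 5.398, and 49.4% of probe sets had a value that recurs exactly on at least 2 of the 9 arrays. For Srsf4 the 3 FAD DKO arrays hold the same value, as do 654 probe sets in that group, 672 in FAD and 638 in wild type, so a small SD of a single group carries little weight. Hdac1 averaged 7.56 ± 0.13 in FAD DKO, 8.12 ± 0.086 in FAD and 8.44 ± 0.318 in wild type, and Hdac2 averaged 7.80 ± 0.164 in FAD DKO, 8.48 ± 0.107 in FAD and 8.29 ± 0.086 in wild type (SD, n = 3 each). The FAD DKO arrays lay below the others for both genes. All 9 measured microglia markers stood above the median of all probe sets, as did all 10 monocyte and neutrophil markers, 6 of 10 endothelial and mural markers, 3 of 7 markers of perivascular and border macrophages, 3 of 10 astrocyte, 3 of 9 oligodendrocyte lineage, 2 of 10 neuron and 2 of 9 lymphocyte markers. Whether each array stands for a separate mouse is not stated in the labels; p-values here reflect how far samples of a group scatter, and that scatter can be technical.

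**Figure D1:**
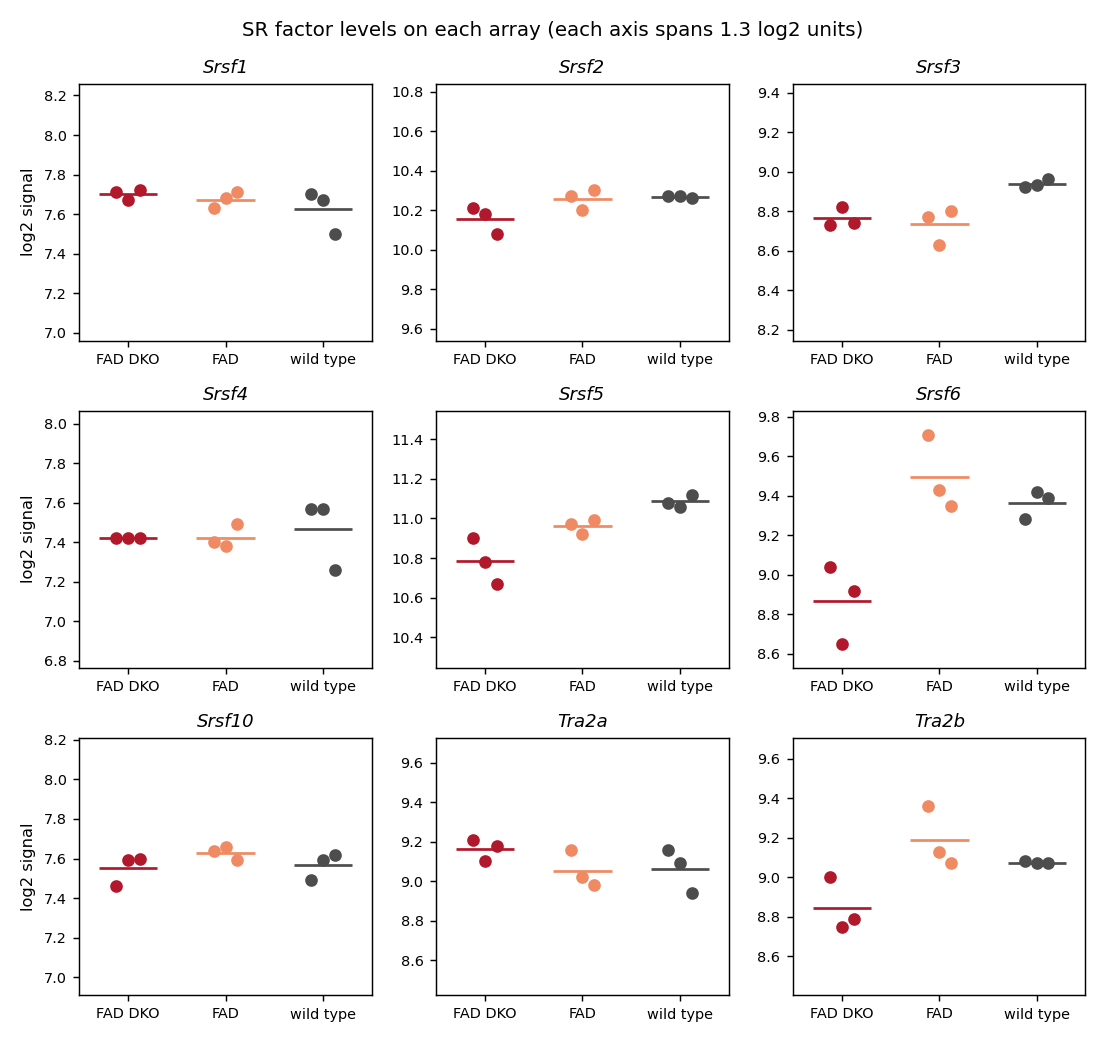
Log2 signal of the 9 measured SR factors on each array, with FAD DKO, FAD and wild type from left to right in each panel; points are arrays and bars are group means of 3. The FAD DKO points of Srsf6, Tra2b and Srsf5 lie below all other points of their panels, while those of Srsf1, Srsf4, Srsf10 and Tra2a overlap with both other groups.

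Deletion of Hdac1 and Hdac2 in the disease model is addressed by FAD DKO against FAD. The Cre allele is present in FAD DKO alone, so deletion and Cre allele cannot be told apart, and Cx3cr1, the gene that carries it, averaged 11.88 ± 0.0683 in FAD DKO, 12.12 ± 0.0139 in FAD and 12.20 ± 0.0696 in wild type (SD, n = 3 each), without overlap of FAD DKO with either other group. The splicing activator Srsf6 stood furthest apart, followed by Tra2b and Srsf5, and the other 6 genes differed by no more than 0.11 in either direction. None of the 9 genes was called by limma at an adjusted p under 0.05 (0 of 9, lowest adjusted p = 0.225), where 0.0225% of all genes passed. At an unadjusted p under 0.05 there were 3 of 9, where all genes gave 8.1%. Those 3 were also the ones whose FAD DKO arrays lay wholly below the FAD arrays, against 6.5% of all genes. The shares of all genes, here and below, are not matched for signal level, and all 9 SR factors lay above the median of all probe sets. The median log2 change was -0.08 over the 9 genes, with 6 below 0, and 0.01 over all genes; it was -0.03 without FAD DKO replicate 1. In such bulk samples fewer cells of a kind and less RNA per cell cannot be told apart.

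Srsf6 is an SR protein with paired RNA recognition motifs that is known to act on alternative exons, among them those of the tau transcript. Its signal was 9.04, 8.65 and 8.92 on the FAD DKO arrays and 9.71, 9.43 and 9.35 on the FAD arrays. Each FAD DKO array was lower than each FAD array, and FAD replicate 1 was the highest of the 9 arrays. The log2 change was -0.63 (SE 0.121, 95% interval -0.90 to -0.35), a fold of 0.648, with an adjusted p of 0.225 in limma. Only 0.365% of all genes had a lower log2 change. Without FAD replicate 1 the change was -0.52.

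A dimmer probe set of Srsf6 gave a smaller difference. It stood at 8.71, 8.64 and 8.64 in FAD DKO and at 8.77, 8.76 and 8.87 in FAD, again without overlap. Its log2 change was -0.14 (SE 0.0687, adjusted p = 0.724 in limma over all probe sets). The mean of both probe sets gave -0.38 (adjusted p = 0.25). Probe positions were not used here, so which transcripts of Srsf6 each probe set reads is not known, and the difference between the 2 probe sets was not tested.

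**Figure D2:**
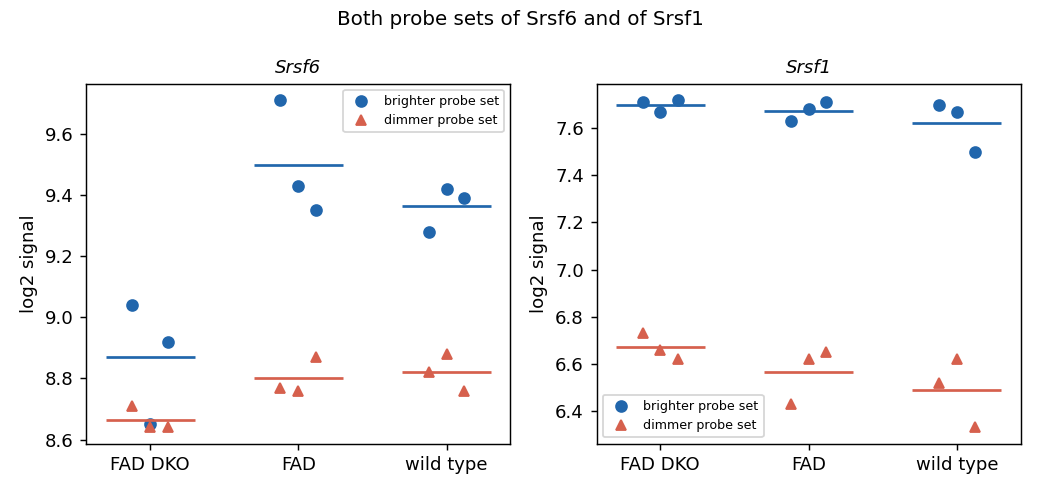
Log2 signal of both single-symbol probe sets of Srsf6 (left) and Srsf1 (right), with FAD DKO, FAD and wild type from left to right; points and triangles are arrays, bars are means of 3, and the 2 panels have different scales. The brighter Srsf6 probe set is 0.63 lower in FAD DKO than in FAD, the dimmer one 0.14 lower, and FAD DKO arrays overlap with FAD arrays for both Srsf1 probe sets.

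Tra2b is a sequence-specific activator that recognises GAA-rich exons. Its signal was 9.0, 8.75 and 8.79 in FAD DKO and 9.36, 9.13 and 9.07 in FAD. The groups did not overlap, though FAD DKO replicate 1 came close to FAD replicate 3. The log2 change was -0.34 (SE 0.0954, 95% interval -0.55 to -0.12, adjusted p = 0.392 in limma), and without FAD replicate 1 it was -0.25. Its paralogue Tra2a stood at 9.21, 9.10 and 9.18 in FAD DKO and at 9.16, 9.02 and 8.98 in FAD. The Tra2a groups overlapped, with a log2 change of 0.11 (SE 0.0809, 95% interval -0.07 to 0.30), so the intervals of the 2 paralogues do not meet, though the difference between them was not tested.

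Srsf5 is a close relative of Srsf4 and Srsf6 with a pair of RNA recognition motifs. Its signal was 10.90, 10.78 and 10.67 in FAD DKO and 10.97, 10.92 and 10.99 in FAD. The highest FAD DKO array lay just below the lowest FAD array. The log2 change was -0.17 (SE 0.0722, 95% interval -0.34 to -0.01, adjusted p = 0.59 in limma). Srsf4 itself stood at 7.42 on each FAD DKO array and at 7.40, 7.38 and 7.49 in FAD, a log2 change of -0.01 (95% interval -0.21 to 0.20).

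The remaining genes overlapped between FAD DKO and FAD. Srsf1, the founding SR protein known for splice site choice and later steps of mRNA metabolism, gave a log2 change of 0.02 (95% interval -0.14 to 0.19), and its dimmer probe set gave 0.10. Srsf2, an SR protein of nuclear speckles that also acts in transcription, gave -0.10 (95% interval -0.24 to 0.05). Srsf3, the smallest of the family and an adapter for mRNA export, gave 0.03 (95% interval -0.13 to 0.18). Srsf10, which represses splicing when it is dephosphorylated, gave -0.08 (95% interval -0.23 to 0.08). Together these intervals span -0.24 to 0.19, and the p-values do not show that the levels were equal.

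Transgenes, floxed alleles and Cre differ together in FAD DKO against wild type. Srsf6 and Srsf5 stood lowest, then Tra2b, Srsf3 and Srsf2, and these 5 genes had FAD DKO arrays wholly below the wild type arrays, against 6.15% of all genes. In limma 0 of 9 passed an adjusted p under 0.05 (lowest adjusted p = 0.223), where 0.14% of all genes passed, and 4 of 9 had an unadjusted p under 0.05, where all genes gave 8.14%. The median log2 change was -0.11 over the 9 genes, with 7 below 0, and 0.00 over all genes. This comparison shares the FAD DKO arrays with the one above.

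Srsf6 stood at 9.28, 9.42 and 9.39 in wild type, so that its log2 change in FAD DKO against wild type was -0.49 (SE 0.121, adjusted p = 0.247 in limma). The dimmer Srsf6 probe set gave -0.15. Srsf5 stood at 11.08, 11.06 and 11.12 in wild type, and its log2 change was -0.30 (SE 0.0722, 95% interval -0.47 to -0.14, adjusted p = 0.223 in limma). For Srsf5 the 3 groups formed a ladder without overlap, FAD DKO lowest, FAD between and wild type highest, with neither step past the threshold. The lower step was narrow, with the highest FAD DKO array at 10.90 and the lowest FAD array at 10.92. How many of all genes form such a ladder was not counted. Tra2b stood at 9.08, 9.07 and 9.07 in wild type and gave -0.23 (SE 0.0954, adjusted p = 0.586). Srsf2 stood at 10.21, 10.18 and 10.08 in FAD DKO and at 10.27, 10.27 and 10.26 in wild type, a log2 change of -0.11 (SE 0.0635, adjusted p = 0.716). In the RefSeq table Srsf2 overlaps with the protein-coding gene Mfsd11, and how the probes keep the 2 apart was not analysed here.

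The disease model without Cre is addressed by FAD against wild type, which shares arrays with both other comparisons. The transgenes and the floxed alleles differ together here and cannot be told apart. Srsf3 and Srsf5 were the 2 of 9 genes with FAD arrays wholly below the wild type arrays, against 5.46% of all genes. In limma 0 of 9 passed an adjusted p under 0.05 (lowest adjusted p = 0.508), where 0.0406% of all genes passed, and 1 of 9 had an unadjusted p under 0.05, where all genes gave 8.43%. The median log2 change was -0.01 over the 9 genes and -0.01 over all genes.

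Srsf3 stood at 8.73, 8.82 and 8.74 in FAD DKO, 8.77, 8.63 and 8.80 in FAD and 8.92, 8.93 and 8.96 in wild type. Both FAD backgrounds were lower than wild type and overlapped with each other, a pattern that no other gene of the family had. Its log2 change was -0.20 in FAD against wild type (SE 0.0688, 95% interval -0.36 to -0.04, adjusted p = 0.508 in limma) and -0.17 in FAD DKO against wild type (adjusted p = 0.558). Srsf5 gave -0.13 in FAD against wild type (SE 0.0722, 95% interval -0.29 to 0.04, adjusted p = 0.678 in limma). Srsf6 and Tra2b were on the other side of 0, at 0.13 (SE 0.121) and 0.11 (SE 0.0954), and both overlapped between the 2 groups. Without FAD replicate 1 both values were 0.03, and without FAD replicate 3 they were 0.21 for Srsf6 and 0.17 for Tra2b. The other 5 genes lay between -0.04 and 0.06.

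**Figure D3:**
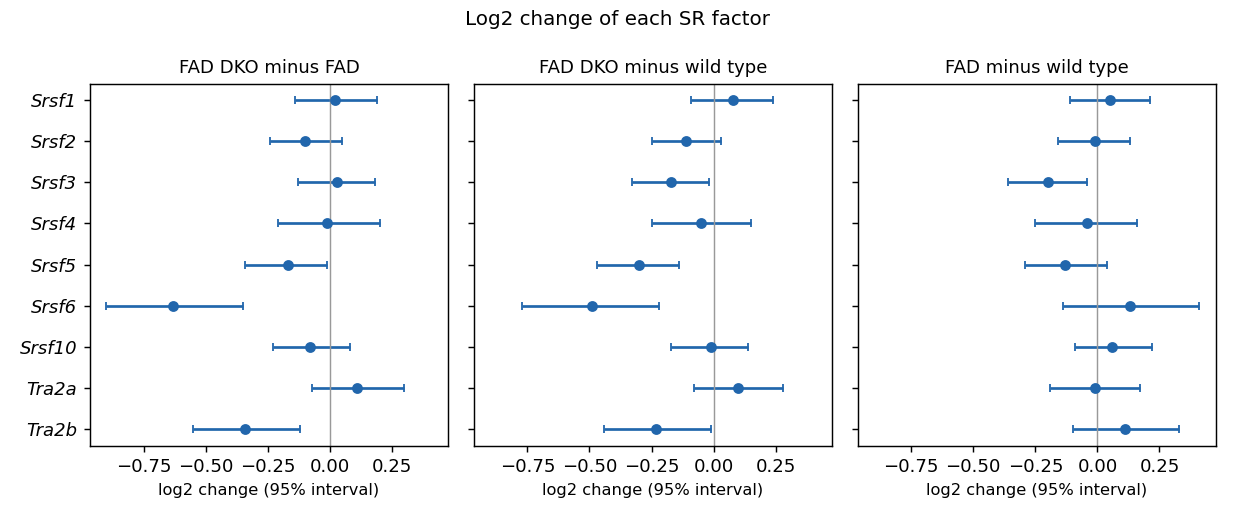
Log2 change of the 9 measured SR factors in FAD DKO minus FAD, FAD DKO minus wild type and FAD minus wild type; points are fitted changes and bars are 95% intervals from limma, not adjusted for the number of genes. Srsf6 lies furthest to the left in the comparisons with FAD DKO, at -0.63 and -0.49, and Srsf3 lies lowest in FAD minus wild type, at -0.20.

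Markers of cell stress were read beside the family, since cell isolation is known to induce early response genes. Of 27 immediate early and stress genes, 24 lay below 0 in FAD DKO against FAD, where 46.7% of all genes did, with a median of -0.26. Atf3, a stress-induced transcription factor, fell by 0.79 in log2 signal (adjusted p = 0.0314 in limma). The 3 above 0 were heat shock genes, Hspa1a (0.05), Hspa1b (0.28) and Hspa8 (0.13), while Dnajb1 (-0.05) and Hsp90aa1 (-0.13) lay below 0. The centred mean of that list was -0.16, -0.20 and -0.22 on the FAD DKO arrays, 0.23, -0.07 and 0.17 on the FAD arrays and 0.04, 0.08 and 0.12 on the wild type arrays. The centred mean of the 9 SR factors was -0.04, -0.12 and -0.10 in FAD DKO, 0.09, 0.00 and 0.03 in FAD and 0.06, 0.07 and 0.01 in wild type. For both lists the FAD DKO arrays were the lowest and FAD replicate 1 was the highest. The lower SR mean in FAD DKO than in FAD came mainly from Srsf6 (-0.63), Tra2b (-0.34) and Srsf5 (-0.17). The other genes lay between -0.10 and 0.11, and the dimmer Srsf6 probe set, not part of this mean, gave -0.14. The part of the stress genes in the SR values was not tested. The centred mean of the monocyte and neutrophil markers was -1.06, 0.74 and 0.09 in FAD DKO, 0.29, 0.18 and 0.12 in FAD and -0.51, 0.00 and 0.15 in wild type, spread over both sides of the other groups within FAD DKO.

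**Figure D4:**
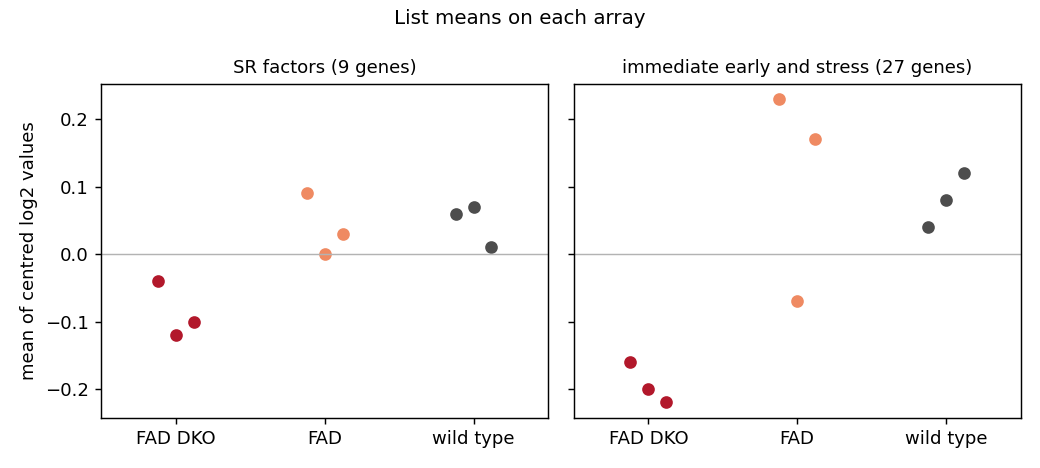
Mean of log2 values, each gene centred on its own mean of 9 arrays, for the 9 SR factors (left) and 27 immediate early and stress genes (right), with FAD DKO, FAD and wild type from left to right; each point is an array. The FAD DKO arrays lie lowest in both panels, from -0.12 to -0.04 on the left and from -0.22 to -0.16 on the right.

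The genes of the family differed in how far they followed this mean. Over the 9 arrays Pearson's r with it was 0.93 for Srsf6, 0.91 for Tra2b, 0.82 for Srsf2 and 0.81 for Srsf5, each of which is itself part of the mean, against -0.22 for Srsf1, -0.18 for Tra2a and 0.07 for Srsf10. Among 18814 named genes outside the family the highest r belonged to Ktn1 and Mettl23 (0.97 each), Chd2 and Cited2 (0.96 each) and Ier2 (0.95). These genes were picked for the highest r over only 9 arrays. How high r runs through such picking alone was not analysed. Mettl23 is the neighbour of Srsf2 in the RefSeq gene order and Ier2 is on the list of immediate early genes. The arrays share groups and labelling, so r describes likeness only.

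On 6 further lists of splicing, decay and export genes, 0 genes passed an adjusted p under 0.05 in limma in any of the 3 comparisons, where 0.0225% of all genes passed in FAD DKO against FAD, 0.14% in FAD DKO against wild type and 0.0406% in FAD against wild type. Among 16 further SR and SR-related proteins 8 lay below 0 in FAD DKO against FAD, with a median of -0.01, and 1 of 16 had an unadjusted p under 0.05, a share near the 8.1% of all genes. That gene was Luc7l2, a U1-associated protein with an arginine and serine rich tail, at 9.96 in FAD DKO, 10.24 in FAD and 10.23 in wild type (log2 change -0.27 against FAD, adjusted p = 0.275, and -0.27 against wild type, adjusted p = 0.19). The canonical SR protein Srsf9 differed by 0.03 and Srsf11 by 0.07 in FAD DKO against FAD, while Srsf12 was dimmer than the median probe set in each group. Rnps1, an exon junction factor, gave 0.20 in FAD against wild type (adjusted p = 0.589), and Srrm2, a scaffold of nuclear speckles, gave -0.13 in FAD DKO against wild type (adjusted p = 0.649).

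The kinases, phosphatases and importers of SR proteins had a median of -0.03 over 13 measured genes in FAD DKO against FAD. There 9 of 13 lay below 0, where 46.7% of all genes did, and 9 of 13 lay above 0 in each of the other comparisons. Srpk3, an SR protein kinase best known from muscle, stood at 7.05 in FAD DKO, 7.31 in FAD and 7.33 in wild type (log2 change -0.26 against FAD, adjusted p = 0.407). The kinases that are common to most tissues gave small differences in FAD DKO against FAD, with Srpk1 at -0.13, Srpk2 at 0.11, Clk1 at -0.09, Clk2 at -0.02 and Clk4 at 0.13. Tnpo3, the importer that carries SR proteins into the nucleus, gave -0.19 (adjusted p = 0.62), and Srpk1 gave 0.17 in FAD against wild type (adjusted p = 0.6).

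The hnRNP proteins, which often oppose SR proteins on exons, leaned to one side: 22 of 24 measured genes lay below 0 in FAD DKO against FAD, where 46.7% of all genes did, with a median of -0.11. At an unadjusted p under 0.05 there were 5 of 24, each below 0, where 4.41% of all genes were lower at that threshold, among them Hnrnpab (9.42 in FAD DKO and 9.78 in FAD, log2 change -0.36, adjusted p = 0.282), Hnrnpa3 (-0.32, adjusted p = 0.275) and Syncrip (-0.30, adjusted p = 0.282). In FAD against wild type 20 of the 24 lay above 0, with a median of 0.08, and in FAD DKO against wild type 16 lay below 0, with a median of -0.06. The first 2 of these counts use the same FAD arrays with opposite sign, so they are not separate observations. Of the SR factors, 5 of 9 lay below 0 in FAD against wild type.

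Factors that recognise splice sites had 11 of 14 measured genes below 0 in FAD DKO against FAD, where 46.7% of all genes did, with a median of -0.04. Quantile normalization moved the median of the SR factors from -0.08 to -0.04 in this comparison. The further lists were not refitted with it, so small leanings of a list may depend on the normalization. In FAD DKO against wild type 8 of the 14 lay below 0, with a median of 0.00, and in FAD against wild type 11 lay above 0, with a median of 0.03, again with shared FAD arrays of opposite sign. The genes below 0 in FAD DKO against FAD included U2af1, which binds the 3′ splice site (-0.19, adjusted p = 0.602), and Sf3b3, a U2 particle subunit (-0.17, adjusted p = 0.614), while Sf1, which binds the branch point, gave -0.15 (adjusted p = 0.643). Nonsense-mediated decay and exon junction factors, of which 9 of 15 were measured, had a median of -0.05 in FAD DKO against FAD. There 5 of 9 lay below 0, with the helicase Upf1 at -0.21 (adjusted p = 0.626). On the other side of 0 were Rbm8a at 0.19 and Eif4a3 at 0.17. Smg9 gave -0.33 in FAD against wild type (adjusted p = 0.535) and Smg5 gave -0.16 in FAD DKO against wild type (adjusted p = 0.619). Among 7 measured mRNA export genes 6 lay below 0 in FAD DKO against FAD, where 46.7% of all genes did, with a median of -0.06. In FAD DKO against wild type 5 of the 7 lay above 0, with a median of 0.02. In FAD against wild type 6 of the 7 lay above 0, with a median of 0.09, again with shared FAD arrays of opposite sign. Alyref, the adapter that hands mRNA to the export receptor, stood at 5.74 in FAD DKO, 6.25 in FAD and 6.26 in wild type. Its log2 change was -0.51 against FAD (adjusted p = 0.287) and -0.53 against wild type (adjusted p = 0.187). These levels are not far above the median of all probe sets (5.354). Thoc1 and Thoc5, subunits of the export complex THO, gave 0.23 (adjusted p = 0.524) and 0.21 (adjusted p = 0.617) in FAD against wild type.

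**Figure D5:**
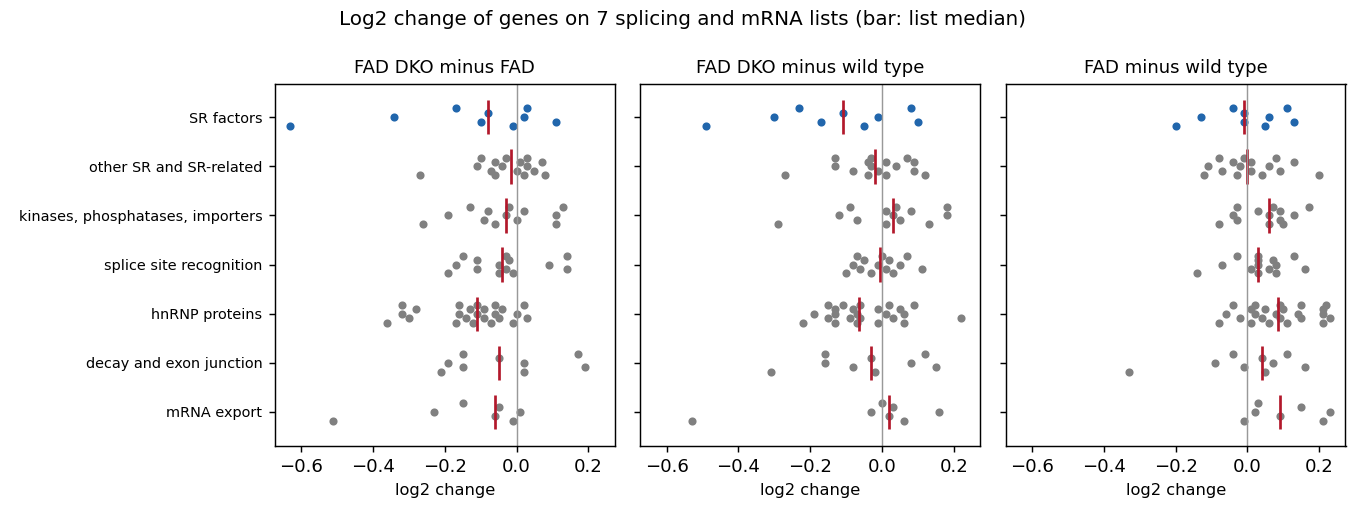
Log2 change of the measured genes on the SR factor list (blue) and 6 other splicing and mRNA lists (grey) in the 3 comparisons; each point is a gene, spread vertically for legibility, and the red bar is the list median. In FAD DKO minus FAD the medians run from -0.11 for hnRNP proteins to -0.01 for other SR and SR-related proteins, and Srsf6 at -0.63 is the lowest of these genes.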

How the data were processed

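Per the labels' protocols, total RNA of the sorted cells was amplified and then biotin-labelled. The authors deposited log2 signals for probe sets, which RMA produced according to the submitters' processing notes. The version, summary level and annotation of RMA are not given in the sources consulted, and the log2 scale was read from the values. Exact repeats of a value between arrays were present in the deposited table. Signal over background and cross-hybridisation between related genes were not analysed, since neither detection calls nor probe sequences were used.

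Of 41345 probe sets, 23521 had 1 gene symbol, 1814 several, and 16010 were unnamed here; 23328 of the single symbols matched RefSeq (GRCm38.p6) by gene identifier and 0 were updated. The brightest probe set stood for a gene (22180 genes). Limma 3.58.1 in R 4.3.3 fitted all 9 arrays with a mean per group (6 residual degrees of freedom, 8.98 after moderation). Tests were two-sided, with Benjamini-Hochberg adjustment over the 22180 genes. Intervals are 95%.

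In a simulation of 22180 genes of which 200 changed, the fit for FAD DKO against FAD recovered 58.7% of 1.5-fold and 84.7% of 2-fold changes, with 3.94% of calls false. The same shares were, in FAD DKO against wild type, 47.7%, 88.7% and 3.97%, and in FAD against wild type 55.1%, 86.5% and 5.56%. Each planted change was 1.5-fold, 2-fold or 4-fold, while the data gave 5, 31 and 9 called genes in these comparisons. The adjustment is stricter where fewer genes change, so these shares do not give the recovery in these data. The members, the lists and the comparisons were chosen with earlier results of these data known. Named genes were the members, any called gene of a splicing list with up to 3 of smallest p, and the 5 genes most like the members' mean. The text adds a few SR proteins and kinases for completeness, Rbm8a and Eif4a3, and some genes of the stress list. Hdac1, Hdac2 and Cx3cr1 were read as checks of the labels. Replicate numbers are shared by the groups, but same-numbered arrays did not deviate together (r from -0.11 to 0.12), so they were not used as pairs. The smallest SD of the difference between 2 arrays was 0.3355, so no array was a copy. Alternatives were a filter on low values, quantile normalization, centring on array medians, a trended and robust variance model, the 2 groups alone, array weights, probe sets averaged per gene, all probe sets tested, the replicate block and leaving out each array. Plots used Python 3.11.15 with matplotlib 3.10.9.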

Additional observations from a re-analysis of the deposited data

How the results depend on the processing

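Under 18 alternatives 0 SR factors passed an adjusted p under 0.05 in any comparison, and the lowest adjusted p was 0.0546, for Srsf5 in FAD DKO against wild type with the trended and robust variance model. Srsf6 in FAD DKO against FAD ran from -0.71 to -0.38 with adjusted p from 0.0882 to 0.541, Tra2b from -0.42 to -0.25 and Srsf5 from -0.23 to -0.12, without a change of direction. Leaving out 1 array moved the median of the SR factors between -0.09 and -0.03 in FAD DKO against FAD, between -0.15 and -0.07 in FAD DKO against wild type and between -0.02 and 0.02 in FAD against wild type. With the replicate block the medians were -0.08, -0.11 and -0.01 in these comparisons; that fit called 2, 11 and 8 genes of all genes, and the arrays share only a number. The count of all genes called was 5 in FAD DKO against FAD (0 to 12 over the alternatives), 31 in FAD DKO against wild type (2 to 124) and 9 in FAD against wild type (5 to 43). Direction turned 17 times among 486 repeats, each time for a difference of at most 0.05 in size. Srsf4 turned to 0.02 with quantile normalization and 0.03 without FAD replicate 3 (FAD DKO against FAD), to 0.00 (FAD DKO against wild type) and 0.01 (FAD against wild type) without wild type replicate 1 and likewise without wild type replicate 2. Tra2a in FAD against wild type turned to 0.01 with arrays centred on their medians, 0.04 and 0.00 without wild type replicates 1 and 2, and 0.00 and 0.02 without FAD replicates 2 and 3. Srsf2 in FAD against wild type turned to 0.01 with centred arrays and without FAD replicate 2, Srsf1 there to -0.01 without wild type replicate 3 (-0.01 to 0.09 over the fits that left out 1 array), and Srsf3 in FAD DKO against FAD to -0.02 without FAD replicate 2 (-0.02 to 0.06). Srsf10 in FAD DKO against wild type turned to 0.01 without wild type replicate 3 and 0.03 without FAD DKO replicate 1 (-0.05 to 0.03). The cause was not tested. With 3 arrays a group the precision is limited, and signal over background was not analysed here.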
